A study of Mus musculus with 18 samples.

Results

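Chromatin accessibility was examined at 7 genes whose products control the stability of cytokine mRNAs, Zfp36, Zfp36l1, Zfp36l2, Zc3h12a, Zc3h12c, Rc3h1 and Elavl1. All peaks of the union peak set that overlapped the gene body of one of them, extended by 25 kb on both sides in mouse build mm9 with the GENCODE M1 annotation, were taken, which gave 161 of 194284 peaks. Of these, 40 were in the authors' promoter table and 121 in their distal table. ATAC-seq, in which a transposase cuts open DNA so that reads over a region count its accessibility, was performed on bone marrow-derived macrophages (BMDMs) of 3 Il10-/- mice. These mice, 12-week-old males on the C57BL/6J background, lack the anti-inflammatory cytokine IL-10, so every group, the unstimulated one included, is deficient in it. There were 6 conditions of 16 hours in all, with 3 libraries of each that the labels number as replicates 1 to 3 without saying whether a number is the same mouse in every condition. The conditions were unstimulated, 500 nM (+)-JQ1 alone, 10 ng/mL IL-10 alone, 50 ng/mL LPS for the last 4 hours, and (+)-JQ1 or IL-10 at the same doses given for 12 hours before that LPS challenge. The paper describes a vehicle control before LPS and calls the unstimulated control cells untreated, whereas the labels call both groups untreated. (+)-JQ1 is an inhibitor of BET bromodomain proteins, and LPS, lipopolysaccharide of bacterial outer membranes, activates macrophages through Toll-like receptor signalling.

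Many cytokine mRNAs carry AU-rich elements or stem-loops in their 3' ends that mark them for rapid destruction. Zfp36 (tristetraprolin) and its relatives Zfp36l1 and Zfp36l2 bind AU-rich elements and recruit deadenylases, whereas Elavl1 (HuR) binds similar sequences and stabilizes its targets. Zc3h12a (Regnase-1) is an endonuclease that cuts stem-loops in mRNAs such as that of Il6, Zc3h12c is a relative with the same kind of nuclease domain, and Rc3h1 (Roquin-1) binds stem-loops and recruits the decay machinery. In macrophages the decay-promoting ones limit how long an inflammatory message lasts, and several of their own genes are induced by LPS.

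In mm9, Zfp36 lies at chr7:29161803-29164274, Zfp36l1 at chr12:81208747-81214000, Zfp36l2 at chr17:84583271-84587287, Zc3h12a at chr4:124795667-124805084, Zc3h12c at chr9:51920090-51976216 and Elavl1 at chr8:4284782-4325100, all on the - strand, and Rc3h1 at chr1:162836549-162905109 on the + strand. They held 16, 15, 20, 22, 33, 32 and 23 peaks in that order. Peaks were most numerous at Zc3h12c and Elavl1, and those within 25 kb of a gene also cover its neighbours, such as Med29, Paf1 and Plekhg2 beside Zfp36, Meaf6 beside Zc3h12a, Serpinc1 beside Rc3h1 and Ccl25 beside Elavl1.

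Peaks are named by gene and by the distance of the peak centre from the start site of the gene, with + for downstream. The results turn most on 9 peaks, chosen after their values were seen as those most clearly changed by a treatment under LPS, or by LPS at the genes where it changed most peaks. For each, the 61 bases around 1 transcription factor motif match, the one nearest to the peak centre outside annotated UTRs, are given on the + strand of mm9. Capitals mark the letters of the motif, on either strand.
Zfp36 +23.1 kb (AP-1 letters, chr7:29142348-29142408): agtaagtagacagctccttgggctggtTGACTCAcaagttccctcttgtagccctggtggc
Zfp36l1 -15.4 kb (PU.1 letters, chr12:81228402-81228462): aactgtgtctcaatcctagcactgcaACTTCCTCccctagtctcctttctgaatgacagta
Zfp36l1 +7.1 kb (kappaB letters, chr12:81206072-81206132): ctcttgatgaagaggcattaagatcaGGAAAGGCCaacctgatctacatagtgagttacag
Zfp36l2 +7.1 kb (kappaB letters, chr17:84579838-84579898): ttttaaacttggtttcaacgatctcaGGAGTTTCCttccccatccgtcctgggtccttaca
Zfp36l2 +9.1 kb (STAT letters, chr17:84577855-84577915): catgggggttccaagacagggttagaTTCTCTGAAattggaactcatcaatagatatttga
Zc3h12a +2.6 kb (AP-1 letters, chr4:124802811-124802871): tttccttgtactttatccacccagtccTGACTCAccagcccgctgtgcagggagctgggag
Zc3h12c +38.1 kb (kappaB letters, chr9:51938116-51938176): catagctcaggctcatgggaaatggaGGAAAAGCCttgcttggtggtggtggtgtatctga
Zc3h12c +61.7 kb (PU.1 letters, chr9:51914075-51914135): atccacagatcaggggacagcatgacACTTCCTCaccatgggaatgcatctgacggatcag
Zc3h12c +68.3 kb (IRF letters, chr9:51907536-51907596): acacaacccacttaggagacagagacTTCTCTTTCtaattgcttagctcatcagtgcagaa

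The motifs searched on both strands were GGNNTTTCC for kappaB, TGANTCA for AP-1, GAAANNGAA for IRF, TTCNNNGAA for STAT, GAGGAAGT for PU.1 and TGACGTCA for CRE. The Zfp36l1 +7.1 kb peak held 3 kappaB, 1 AP-1, 4 IRF and 1 PU.1 matches, and of 1532 peaks of the same table and about its width 55.6%, 79.4%, 75.5% and 34.1% held the respective letters. Its counterpart at Zfp36l2 +9.1 kb held 1 STAT and 1 PU.1 match, found in 61.9% and 25.4% of peaks of that width, and none of the letters of the other motifs. The narrow Zfp36l2 +7.1 kb peak held 1 kappaB match, found in 11.4% of peaks of that width. The intronic Zc3h12a +2.6 kb peak held 1 AP-1 and 1 PU.1 match, and such letters were in 42.8% and 15.5% of peaks as wide. All 3 Zc3h12c peaks held kappaB, AP-1, IRF and STAT letters, which in peaks as wide as Zc3h12c +38.1 kb had shares of 53.3%, 79.0%, 74.2% and 72.6%. Zfp36 +23.1 kb held 4 AP-1 and 2 STAT matches, letters found in 84.95% and 84.1% of peaks of that width. Zfp36l1 -15.4 kb held 2 AP-1, 1 STAT and 1 PU.1 match, found in 68.65%, 65.1% and 26.5% of peaks of that width. Over the 121 distal member peaks, 61 held AP-1 letters, a share of 50.4% beside 42.7% of distal peaks of the same width, and the kappaB, IRF and STAT shares of 23.1%, 36.4% and 37.2% lay beside 24.0%, 40.6% and 37.9%. A match is a run of letters and not a bound site.

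Library totals ranged from 12020526 to 25908198 reads in peaks, and all 161 member peaks passed edgeR's filter on low counts, as did 194230 of all peaks. Accessibility is given as CPM, the counts in a peak relative to the library total after TMM scaling, and a peak is called changed, a differentially accessible region (DAR), if its log2 fold-change is past 0.5 in either direction with an FDR below 0.05. The FDR is the p-value of the quasi-likelihood test of edgeR after adjustment by Benjamini-Hochberg over the tested peaks. Factors of the TMM scaling were 1.24, 1.15 and 1.04 for replicates 1, 2 and 3 without stimulation and between 0.896 and 1.05 in the others, and promoter peaks took 40.8% to 45.5% of reads in unstimulated libraries and 42.4% to 51.1% in the others. With reads in peaks as the only scaling, the median log2 fold-change over all peaks moved from -0.03 to -0.26 for LPS, from -0.09 to -0.37 for (+)-JQ1 alone and from -0.05 to -0.26 for IL-10 alone. Promoter peaks of 7 of 8 macrophage markers had mean CPM of 7.08 to 39.3, with group sums between 128.8 and 213.9, while the eighth, Spi1, was not in the annotation under that symbol. Cd3e, Cd3g, Ly6g and Col3a1 had no promoter peak, and the markers of other cells with the highest means were Elane with 27.5, Pdgfra with 23.0, Lck with 17.8 and Col1a1 with 14.5. Group sums ran from 12.9 to 22.4 for T cell, 3.94 to 8.79 for B cell, 25.5 to 36.5 for neutrophil, 34.2 to 42.8 for fibroblast and 4.93 to 7.62 for epithelial markers. In such bulk libraries fewer cells of a type and less accessible chromatin per cell cannot be told apart.

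LPS against unstimulated BMDMs asks how the loci respond to bacterial stimulation. With LPS the loci of the endonucleases Zc3h12c and Zc3h12a gained accessibility, peaks downstream of Zfp36l1 and Zfp36l2 fell, and Zfp36, Rc3h1 and Elavl1 changed at few peaks. Of the 161 member peaks 32 rose and 16 fell, beside 11.7% and 10.2% of all peaks, and the 3 libraries with LPS lay apart from the 3 without it in 46 of these 48. Whether called or not, the groups lay apart in 80 of the 161. The same count was not made over all peaks, here or below. These counts therefore do not show whether member peaks separate more often than other peaks. Peaks called with 3 libraries a side mostly separate, so such separation, here and below, adds no support to a call. The median log2 fold-change was -0.00 over member peaks and -0.03 over all peaks. Among the 40 promoter peaks 5 rose and 0 fell, beside 14.3% and 6.71% of all promoter peaks.

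**Figure D1:**
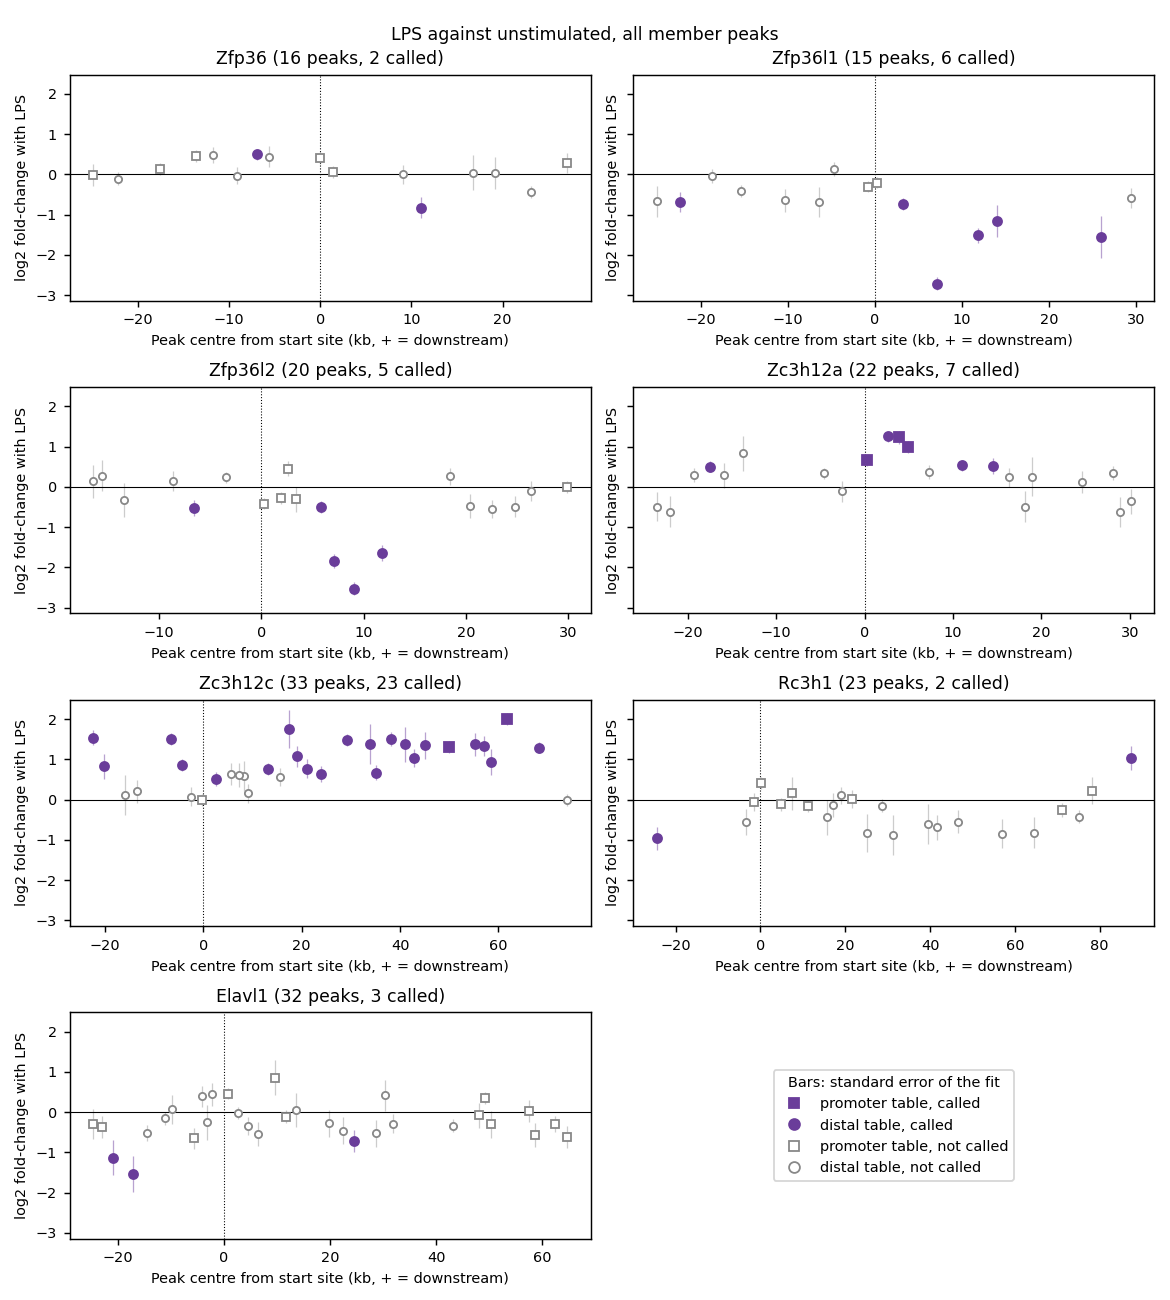
Log2 fold-change with LPS against unstimulated (y axis, log2 units) of all 161 member peaks, by distance of the peak centre from the gene's start site in kb (x axis), 1 panel per gene. Bars are standard errors of the edgeR fit, filled symbols are DARs, squares are promoter-table and circles distal-table peaks. The 23 filled symbols of Zc3h12c lie above 0 along the whole locus, and those of Zfp36l1 and Zfp36l2 lie below 0, down to -2.71 and -2.52.

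The deepest losses of accessibility among member peaks lay just downstream of the AU-rich element binding genes Zfp36l1 and Zfp36l2. Zfp36l1 +7.1 kb (chr12:81204570-81209294), which covers the 3' end of the gene and an exon of Gm17591, had 27.1, 35.99 and 44.4 CPM in unstimulated replicates 1, 2 and 3 and 6.02, 5.19 and 5.14 CPM with LPS. Every LPS library was far under every unstimulated one, 6.56-fold lower in the fit (log2 fold-change -2.71 ± 0.17, edgeR FDR = 8.43e-27). At Zfp36l2 +9.1 kb (chr17:84576607-84579723), downstream of the gene, the CPM were 22.6, 30.5 and 35.7 in unstimulated cells and 5.28, 5.14 and 5.02 with LPS (-2.52 ± 0.16, edgeR FDR = 4.12e-27). The LPS libraries lay close together there, and no unstimulated library came near them. The adjoining Zfp36l2 +7.1 kb fell from 12.5, 12.9 and 20.4 to 4.32, 4.095 and 4.42 CPM (-1.84 ± 0.17, edgeR FDR = 1.54e-16).

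Losses at these 2 genes were not limited to single peaks. Of the 15 peaks of Zfp36l1, 6 (40.0%) fell, beside 10.2% of all peaks, with log2 fold-changes from -2.71 to -0.69. In this locus 0 rose, and the median was -0.67. The falling peaks included 2 over exons of the gene, 3 of the 4 downstream peaks and 1 upstream. Of the 20 peaks of Zfp36l2, 5 (25.0%) fell (-2.52 to -0.50), 4 of them downstream, and 0 rose. Peaks of a locus are counted singly here and need not be independent of one another. The main promoter peak, the most accessible promoter peak of each gene, was not called for either: Zfp36l1 +0.2 kb had 21.6, 28.2 and 35.1 CPM unstimulated and 26.7, 24.2 and 22.6 with LPS, and Zfp36l2 +0.3 kb had 48.6, 53.96 and 73.04 and 42.96, 45.00 and 43.4 (-0.42 ± 0.14, edgeR FDR = 0.0157, a fold-change under the limit). The second most changed peak of Zfp36l1, +26.0 kb, was at 0.119 to 1.37 CPM over all libraries and lost its call without replicate 3 (-0.76, edgeR FDR = 0.428), while the calls at Zfp36l1 +7.1 kb, Zfp36l2 +9.1 kb and Zfp36l2 +7.1 kb held under all 11 alternative settings.

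At Zfp36 itself, the founding member of the family, 1 of 16 peaks rose and 1 fell with LPS (6.25% each, beside 11.7% and 10.2% of all peaks). The main promoter peak, Zfp36 +0.0 kb (chr7:29163944-29164525), had 19.9, 28.1 and 36.5 CPM unstimulated and 38.2, 37.2 and 37.03 with LPS. The LPS libraries were close to one another and above all 3 unstimulated ones, which were spread widely, and the fold-change was under the limit (0.41 ± 0.14, edgeR FDR = 0.0252). Zfp36 -7.0 kb, over an exon of the neighbouring Med29, rose by 0.50 (log2, edgeR FDR = 0.00446) and was not called without replicate 1 (0.34, edgeR FDR = 0.135), without replicate 2 (0.45, edgeR FDR = 0.15), with lane as a covariate, with reads in peaks as the scaling or with loess offsets. Zfp36 +11.0 kb, over an exon of Plekhg2, fell (-0.83 ± 0.26, edgeR FDR = 0.0106) and lost its call without replicate 1 (-0.65, edgeR FDR = 0.113) and without replicate 2 (-0.76, edgeR FDR = 0.105).

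Zc3h12c, which encodes a CCCH-type relative of Regnase-1, had the broadest gain: 23 of its 33 peaks (69.7%) rose with LPS, beside 11.7% of all peaks. They rose by 0.52 to 2.00 on the log2 scale, 0 fell, and in all 23 the LPS libraries lay above every unstimulated library. The median over the locus was 0.85. The rising peaks were 11 of 16 in introns, 5 of 5 over exons, 4 of 7 upstream and 3 of 4 downstream, whereas the main promoter peak Zc3h12c -0.3 kb (chr9:51975930-51977087) had 27.8, 27.8 and 22.8 CPM with LPS against 19.2, 26.2 and 33.4 without (log2 fold-change -0.01 ± 0.14). Counts of rising Zc3h12c peaks ran from 16 (reads in peaks as the scaling, or without replicate 2) to 24 (with lane as a covariate) over the alternative settings. The most raised was Zc3h12c +61.7 kb (chr9:51912099-51917013), beyond the 3' end of the gene and in the authors' promoter table although no GENCODE M1 start site lies there, with 10.4, 9.396 and 12.2 CPM unstimulated and 45.5, 43.8 and 38.9 with LPS. All 3 LPS libraries lay far above the 3 unstimulated ones (3.997-fold higher, 2.00 ± 0.15, edgeR FDR = 5.83e-22).

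Next to it, Zc3h12c +68.3 kb (chr9:51904712-51911029) went from 11.8, 14.3 and 14.6 to 34.1, 32.5 and 32.8 CPM (1.29 ± 0.14, edgeR FDR = 2.1e-13), and the intronic Zc3h12c +38.1 kb (chr9:51935903-51940306) from 4.95, 4.396 and 3.56 to 11.03, 13.2 and 12.4 (1.51 ± 0.17, edgeR FDR = 2e-12). Groups did not overlap at either. Zc3h12c +17.4 kb, also intronic, had the second largest log2 fold-change (1.76 ± 0.46) at a mean of 1.42 CPM with LPS, and its call was lost without replicate 3 (1.34, edgeR FDR = 0.0741).

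At Zc3h12a, the Regnase-1 gene, 7 of 22 peaks (31.8%, beside 11.7% of all peaks) rose with LPS, by 0.50 to 1.25, and 0 fell. Its 3 promoter peaks were all among them. The intronic Zc3h12a +2.6 kb (chr4:124801754-124803307) had 14.9, 15.4 and 22.9 CPM unstimulated and 44.3, 43.2 and 39.7 with LPS, groups that were far apart (1.25 ± 0.14, edgeR FDR = 1.76e-12). The neighbouring Zc3h12a +3.9 kb, at a second annotated start site, went from 5.49, 5.16 and 7.89 to 15.4, 16.03 and 12.1 (1.23 ± 0.16, edgeR FDR = 1.08e-09), and both calls held under all alternative settings. The main promoter peak Zc3h12a +0.3 kb (chr4:124804337-124805315) rose less, from 26.8, 30.5 and 43.02 to 57.9, 52.1 and 48.7 CPM (0.66 ± 0.14, edgeR FDR = 9.61e-05). Its fold-change fell under the limit without replicate 1 (0.46, edgeR FDR = 0.0252), with reads in peaks as the scaling (0.44, edgeR FDR = 0.000294) and with loess offsets (0.23, edgeR FDR = 0.0197).

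The genes of the stem-loop binding Roquin-1 and of the stabilizing HuR moved little with LPS. Of the 23 peaks of Rc3h1, 1 rose and 1 fell (4.35% each, beside 11.7% and 10.2% of all peaks), both beyond the gene: Rc3h1 +87.3 kb over an exon of Serpinc1 (1.02 ± 0.30, edgeR FDR = 0.00596, lost without replicate 2, 0.89, edgeR FDR = 0.0779) and Rc3h1 -24.4 kb (-0.96 ± 0.29, edgeR FDR = 0.00828, lost without replicate 1, -0.75, edgeR FDR = 0.114, and without replicate 2, -0.79, edgeR FDR = 0.124). Of the 32 peaks of Elavl1, 3 (9.38%) fell, near the 10.2% of all peaks, and 0 rose. The named ones, Elavl1 -17.2 kb (-1.53 ± 0.45, edgeR FDR = 0.00632) and Elavl1 -21.0 kb (-1.13 ± 0.43, edgeR FDR = 0.0415), lie in an intron of Ccl25, were at 0.2997 to 0.899 CPM with LPS and lost their calls, the first without replicate 2 (-1.22, edgeR FDR = 0.152) and the second without replicate 1 (-0.98, edgeR FDR = 0.177), without replicate 3 (-0.83, edgeR FDR = 0.259) with loess offsets, with lane as a covariate and in DESeq2. The main promoter peaks had fold-changes under the limit, 0.41 ± 0.14, edgeR FDR = 0.0198 at Rc3h1 +0.2 kb and 0.46 ± 0.14, edgeR FDR = 0.00688 at Elavl1 +0.8 kb, which also covers the start of Ccl25.

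Summed over all peaks of a gene, a description without a test, Zc3h12c went from 158.5 ± 10.0 CPM (SD, n = 3) in unstimulated cells to 313.7 ± 16.0 with LPS, with 276.2 ± 39.7 after (+)-JQ1 and LPS and 286.8 ± 20.5 after IL-10 and LPS. Both treated groups overlapped LPS alone, with 247.2 to 321.4 and 264.4 to 304.7 CPM against 295.2 to 323.1. Zfp36l1 went from 146.1 ± 23.9 to 88.1 ± 6.94 with LPS, with 118.5 ± 11.5 after (+)-JQ1 and LPS and 104.3 ± 2.62 after IL-10 and LPS. For Zfp36l2 the sums were 203.0 ± 36.5 unstimulated, 138.3 ± 4.88 with LPS, 170.6 ± 15.9 after (+)-JQ1 and LPS and 141.4 ± 2.56 after IL-10 and LPS. The libraries with LPS alone lay apart from the unstimulated ones at these 3 genes, and at Zfp36 and Zc3h12a too. At Zfp36 the gap was narrow, from 190.5 CPM unstimulated to 191.4 with LPS. Zfp36 had 163.4 ± 27.0 unstimulated and 195.9 ± 4.51, 218.7 ± 15.2 and 194.3 ± 6.68 with LPS, (+)-JQ1 and LPS, and IL-10 and LPS. Zc3h12a had 172.2 ± 31.7 unstimulated and 268.0 ± 15.8, 280.2 ± 23.0 and 266.5 ± 20.3 in the 3 conditions with LPS, which overlapped one another. Rc3h1 and Elavl1 differed between unstimulated and LPS by less than the spread between replicates, with 122.1 ± 18.4 and 126.8 ± 2.16 for Rc3h1 and 142.0 ± 18.9 and 146.5 ± 8.003 for Elavl1.

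**Figure D2:**
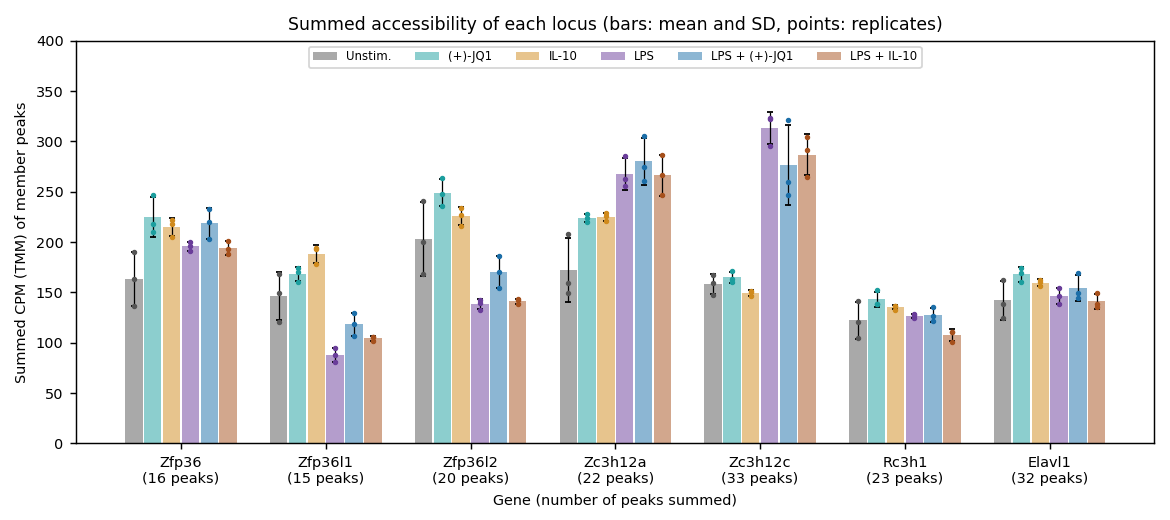
Summed CPM (TMM-scaled, y axis) of the member peaks of each gene (x axis, with the number of peaks) in the 6 conditions. Bars are means, error bars SD and points the 3 replicates. Zc3h12c is higher in all conditions with LPS than without, from 158.5 to 313.7 CPM on average, and Zfp36l1 and Zfp36l2 are lower with LPS, at 88.1 and 138.3.

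Cells pretreated with (+)-JQ1 were compared with LPS alone to see which of these responses BET inhibition alters. Among member peaks 7 were higher and 5 lower than with LPS alone, beside 1.74% and 3.49% of all peaks, and the groups lay apart in 11 of the 12. Whether called or not, the groups lay apart in 41 of the 161 member peaks. The higher ones were 4 peaks of Zfp36l1, 2 of Zfp36l2 and 1 of Elavl1, and the lower ones were 5 peaks of Zc3h12c. The median log2 fold-change was 0.07 over member peaks and -0.00 over all peaks. No peak of Zfp36, Zc3h12a or Rc3h1 was called in this comparison. The LPS libraries serve as controls here and in the comparison of IL-10. They are also the stimulated side of LPS against unstimulated, so their own deviations enter both comparisons with opposite signs.

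At the Zfp36 relatives the peaks lowest with LPS alone were higher after (+)-JQ1 and LPS. Zfp36l1 +7.1 kb had 6.02, 5.19 and 5.14 CPM with LPS and 7.75, 15.8 and 10.9 after (+)-JQ1 and LPS (2.12-fold higher, 1.08 ± 0.17, edgeR FDR = 2.27e-06). All 3 libraries with (+)-JQ1 were above all 3 with LPS alone and under every unstimulated library, and replicate 2 was the highest. Zfp36l2 +9.1 kb went from 5.28, 5.14 and 5.02 to 7.44, 10.8 and 9.501 (0.86 ± 0.16, edgeR FDR = 8.58e-05), and Zfp36l2 +7.1 kb from 4.32, 4.095 and 4.42 to 5.22, 9.28 and 8.14 (0.84 ± 0.18, edgeR FDR = 0.000446). Without replicate 2 the direction stayed but none of the 3 was called (0.76, edgeR FDR = 0.0639 at Zfp36l1 +7.1 kb, 0.73, edgeR FDR = 0.0688 at Zfp36l2 +9.1 kb and 0.65, edgeR FDR = 0.15 at Zfp36l2 +7.1 kb). The lane differed between replicates here, with replicate 1 on lane 5 and replicates 2 and 3 on lane 6 in both groups, and all 3 stayed called with lane as a covariate.

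The main promoter peak of Zfp36l1, +0.2 kb, was also higher, with 26.7, 24.2 and 22.6 CPM with LPS and 31.8, 40.2 and 34.1 after (+)-JQ1 and LPS (0.53 ± 0.14, edgeR FDR = 0.00823). It was not called without replicate 2 (0.42, edgeR FDR = 0.37), and with loess offsets its fold-change was under the limit (0.45, edgeR FDR = 8.53e-05). Zfp36l1 +11.8 kb was higher by a narrow margin (0.61 ± 0.20, edgeR FDR = 0.047) and was not called in DESeq2 or without replicate 2 (0.62, edgeR FDR = 0.24) or replicate 3 (0.49, edgeR FDR = 0.383). The Elavl1 -17.2 kb peak rose by 1.57 ± 0.44 (edgeR FDR = 0.0154) at levels of 0.2997 to 1.202 CPM, a call that was lost without replicate 2 (1.41, edgeR FDR = 0.202) and without replicate 3 (1.57, edgeR FDR = 0.129).

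At Zc3h12c, (+)-JQ1 before LPS was accompanied by lower accessibility at 2 of the 4 peaks beyond the 3' end of the gene. Zc3h12c +61.7 kb had 45.5, 43.8 and 38.9 CPM with LPS and 31.2, 17.7 and 21.3 after (+)-JQ1 and LPS, levels still above every unstimulated library (-0.88 ± 0.14, edgeR FDR = 1.28e-06). Zc3h12c +68.3 kb had 34.1, 32.5 and 32.8 and 19.96, 16.1 and 17.9 (-0.89 ± 0.13, edgeR FDR = 4.7e-07). The groups were apart in both, and both calls held under all 11 alternative settings. The other 2 were not called, Zc3h12c +58.5 kb with -0.30 ± 0.30, edgeR FDR = 0.67 and Zc3h12c +74.0 kb with 0.09 ± 0.15, edgeR FDR = 0.833. Within the gene, Zc3h12c +38.1 kb fell from 11.03, 13.2 and 12.4 to 9.13, 6.55 and 7.14 (-0.70 ± 0.16, edgeR FDR = 0.00162), and the other 2 lower peaks, Zc3h12c +57.0 kb and +29.3 kb, named because so few were called, had -0.74 ± 0.24 and -0.51 ± 0.15. Of the 23 Zc3h12c peaks that rose with LPS these 5 were lower after (+)-JQ1, a share that was not counted over all LPS-raised peaks. The main promoter peak of Zc3h12c was not called (0.43 ± 0.14, edgeR FDR = 0.0498). By contrast Zc3h12a +2.6 kb, the strongest LPS-raised peak of Regnase-1, had 45.7, 38.3 and 40.5 CPM after (+)-JQ1 and LPS, a range that overlapped that of LPS alone (-0.03 ± 0.14, edgeR FDR = 0.938).

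**Figure D3:**
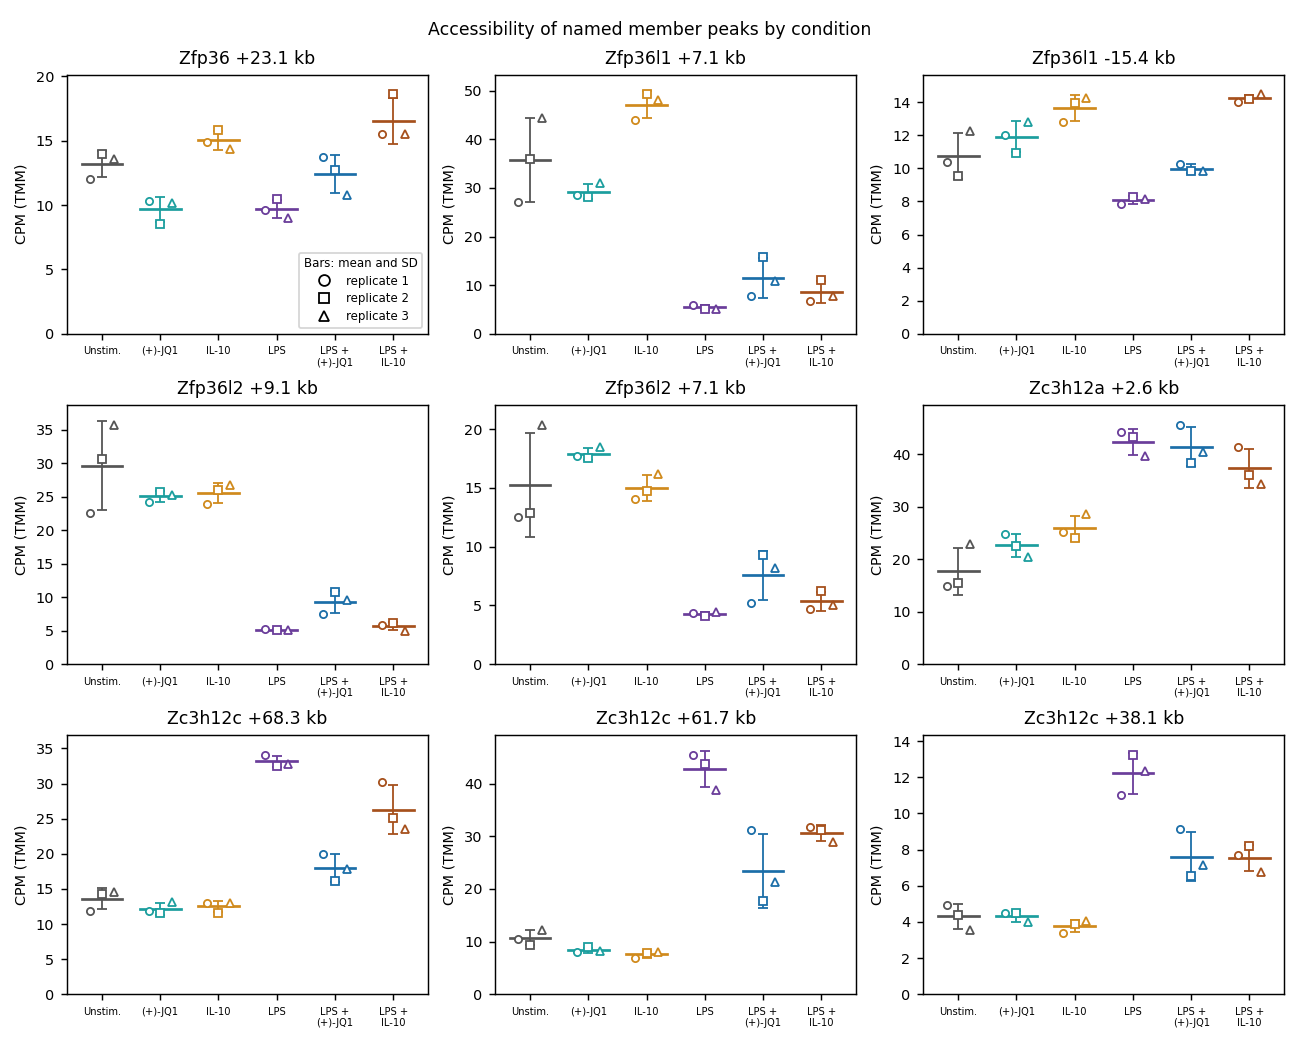
CPM (TMM-scaled, y axis) of 9 named peaks in the 6 conditions (x axis). Symbols are the 3 replicates, long bars the mean and error bars the SD. Zfp36l1 +7.1 kb and both Zfp36l2 peaks are lowest with LPS and intermediate after (+)-JQ1 and LPS, the Zc3h12c peaks are highest with LPS alone, and Zfp36 +23.1 kb and Zfp36l1 -15.4 kb are highest on average after IL-10 and LPS, at 16.6 and 14.2 CPM.

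The same comparison with IL-10, the cytokine these cells lack, gave 8 higher and 2 lower member peaks than LPS alone, beside 4.26% and 4.51% of all peaks, all 10 without overlap of the groups. Whether called or not, the groups lay apart in 41 of the 161 member peaks. The median log2 fold-change was 0.09 over member peaks and -0.01 over all peaks. The higher ones were spread over 5 genes, with 2 each at Zfp36, Zfp36l1 and Zc3h12a and 1 each at Zfp36l2 and Zc3h12c. Zfp36 +23.1 kb (chr7:29138070-29144271), downstream of the tristetraprolin gene, had 9.602, 10.4 and 9.02 CPM with LPS and 15.5, 18.6 and 15.5 after IL-10 and LPS, above every LPS library (0.77 ± 0.14, edgeR FDR = 2.87e-05). Zfp36l1 -15.4 kb (chr12:81227746-81231093), upstream of its gene, had 7.86, 8.29 and 8.12 and 14.02, 14.2 and 14.5 (0.81 ± 0.14, edgeR FDR = 1.14e-05). In unstimulated cells the 2 peaks had 12.05, 13.96 and 13.6 and 10.4, 9.56 and 12.3 CPM, between those of the groups compared in every replicate of both peaks. Another peak, Zfp36l2 +3.4 kb over an exon of the gene, went from 0.919, 1.85 and 1.55 to 3.302, 3.59 and 3.08 CPM (1.21 ± 0.28, edgeR FDR = 0.000979). These 3 calls held under all 11 alternative settings.

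Zfp36l1 +7.1 kb had 6.81, 11.1 and 7.76 CPM after IL-10 and LPS (0.64 ± 0.18, edgeR FDR = 0.00959), a call that was lost without replicate 2 (0.38, edgeR FDR = 0.405) and in DESeq2 (adjusted p = 0.0893). Zfp36l2 +9.1 kb was not called, with 5.79, 6.14 and 4.96 CPM in a range that overlapped that of LPS alone (0.12 ± 0.17, edgeR FDR = 0.73). At Zc3h12c, the intronic +38.1 kb peak fell to 7.72, 8.17 and 6.75 CPM (-0.70 ± 0.16, edgeR FDR = 0.000942, called under all settings), and Zc3h12c +61.7 kb had 31.7, 31.3 and 28.9 CPM, under every LPS library but with a fold-change inside the limit (-0.48 ± 0.14, edgeR FDR = 0.0111). Upstream of the gene Zc3h12c -13.4 kb rose from 1.79, 1.45 and 2.75 to 4.88, 3.19 and 3.58 (0.98 ± 0.25, edgeR FDR = 0.00473), and was not called without replicate 1 (0.72, edgeR FDR = 0.159) or without replicate 2 (0.91, edgeR FDR = 0.0617).

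The remaining IL-10 calls were at low or neighbouring peaks. Zc3h12a +14.5 kb and +18.1 kb, both over exons of Meaf6, rose (0.68 ± 0.18, edgeR FDR = 0.00674 and 1.18 ± 0.35, edgeR FDR = 0.0177), and without replicate 3 neither was called (0.63, edgeR FDR = 0.0788 and 1.17, edgeR FDR = 0.11), nor was the second without replicate 1 (0.70, edgeR FDR = 0.384). Zfp36 -9.2 kb in an intron of Med29 rose (0.73 ± 0.20, edgeR FDR = 0.00872) and was lost without replicate 1 (0.64, edgeR FDR = 0.0718) and without replicate 2 (0.71, edgeR FDR = 0.0986). Zc3h12a -13.8 kb fell at a mean of 1.03 CPM with LPS (-1.30 ± 0.45, edgeR FDR = 0.0485), and this call ended in DESeq2, under both other scalings by reads in peaks and by loess offsets, and without replicate 1 (-1.33, edgeR FDR = 0.148), replicate 2 (-1.53, edgeR FDR = 0.125) or replicate 3 (-1.06, edgeR FDR = 0.281).

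Set directly against each other under LPS, (+)-JQ1 and IL-10 differed at 10 member peaks, 4 higher and 6 lower with (+)-JQ1, beside 3.43% and 4.68% of all peaks, and the groups lay apart in 8 of the 10. Whether called or not, the groups lay apart in 33 of the 161 member peaks. Higher with (+)-JQ1 were the main promoter peak of Zfp36l1, with 31.8, 40.2 and 34.1 against 23.2, 20.97 and 20.8 CPM (0.71 ± 0.14, edgeR FDR = 0.000111), and Zfp36l2 +9.1 kb, with 7.44, 10.8 and 9.501 against 5.79, 6.14 and 4.96 (0.73 ± 0.16, edgeR FDR = 0.000684). Lower were Zc3h12c +68.3 kb, with 19.96, 16.1 and 17.9 against 30.3, 25.1 and 23.6 (-0.55 ± 0.14, edgeR FDR = 0.0026), Zc3h12a +14.5 kb (-0.61 ± 0.18, edgeR FDR = 0.0183) and Zfp36 -9.2 kb (-0.64 ± 0.20, edgeR FDR = 0.0255). Zc3h12c -0.3 kb, the main promoter peak, was higher with (+)-JQ1 by 0.53 ± 0.14 (edgeR FDR = 0.00645), and fell under the limits with loess offsets (0.33, edgeR FDR = 0.00838) and without replicate 2 (0.47, edgeR FDR = 0.222). No difference was called at Zc3h12c +38.1 kb (0.00 on the log2 scale, SE 0.16, edgeR FDR = 0.999), which was lower than LPS alone after either treatment. The peaks called here were not called without replicate 2, with 0.58, edgeR FDR = 0.0981 at Zfp36l1 +0.2 kb, 0.68, edgeR FDR = 0.0739 at Zfp36l2 +9.1 kb, -0.51, edgeR FDR = 0.139 at Zc3h12c +68.3 kb, -0.48, edgeR FDR = 0.269 at Zc3h12a +14.5 kb and -0.59, edgeR FDR = 0.217 at Zfp36 -9.2 kb. Without replicate 3 the Zc3h12a and Zfp36 peaks were lost as well (-0.61, edgeR FDR = 0.105 and -0.48, edgeR FDR = 0.31).

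In resting cells (+)-JQ1 alone was compared with unstimulated cells to separate its own effect from that on LPS. Of the member peaks 12 were higher and 4 lower, beside 7.85% and 3.15% of all peaks, and of the 40 promoter peaks 9 were higher, beside 22.9% of all promoter peaks. The 7 main promoter peaks were all called higher with (+)-JQ1, with log2 fold-changes of 0.59 to 0.74, although with reads in peaks as the scaling all 7 were under the fold-change limit (0.31 to 0.47), and with loess offsets all 7 lay between -0.08 and 0.17 and those of Zfp36l2 and Rc3h1 turned below 0 (-0.0797 and -0.00208). Without replicate 2, 1 of the 7 was called, Zfp36l1 +0.2 kb. The CPM of Zfp36l1 +0.2 kb were 21.6, 28.2 and 35.1 unstimulated and 44.6, 48.5 and 48.4 with (+)-JQ1 (0.73 ± 0.14, edgeR FDR = 2.72e-05). Those of Rc3h1 +0.2 kb were 36.8, 39.9 and 58.4 and 70.7, 82.01 and 72.5 (0.73 ± 0.14, edgeR FDR = 3.01e-05). At all 7 every unstimulated library lay under every (+)-JQ1 library, with replicate 1 lowest and replicate 3 highest among the unstimulated ones, and the unstimulated library with the highest TMM factor was that of replicate 1 and the one with the lowest that of replicate 3. The part of TMM factors in that spread was not tested.

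**Figure D4:**
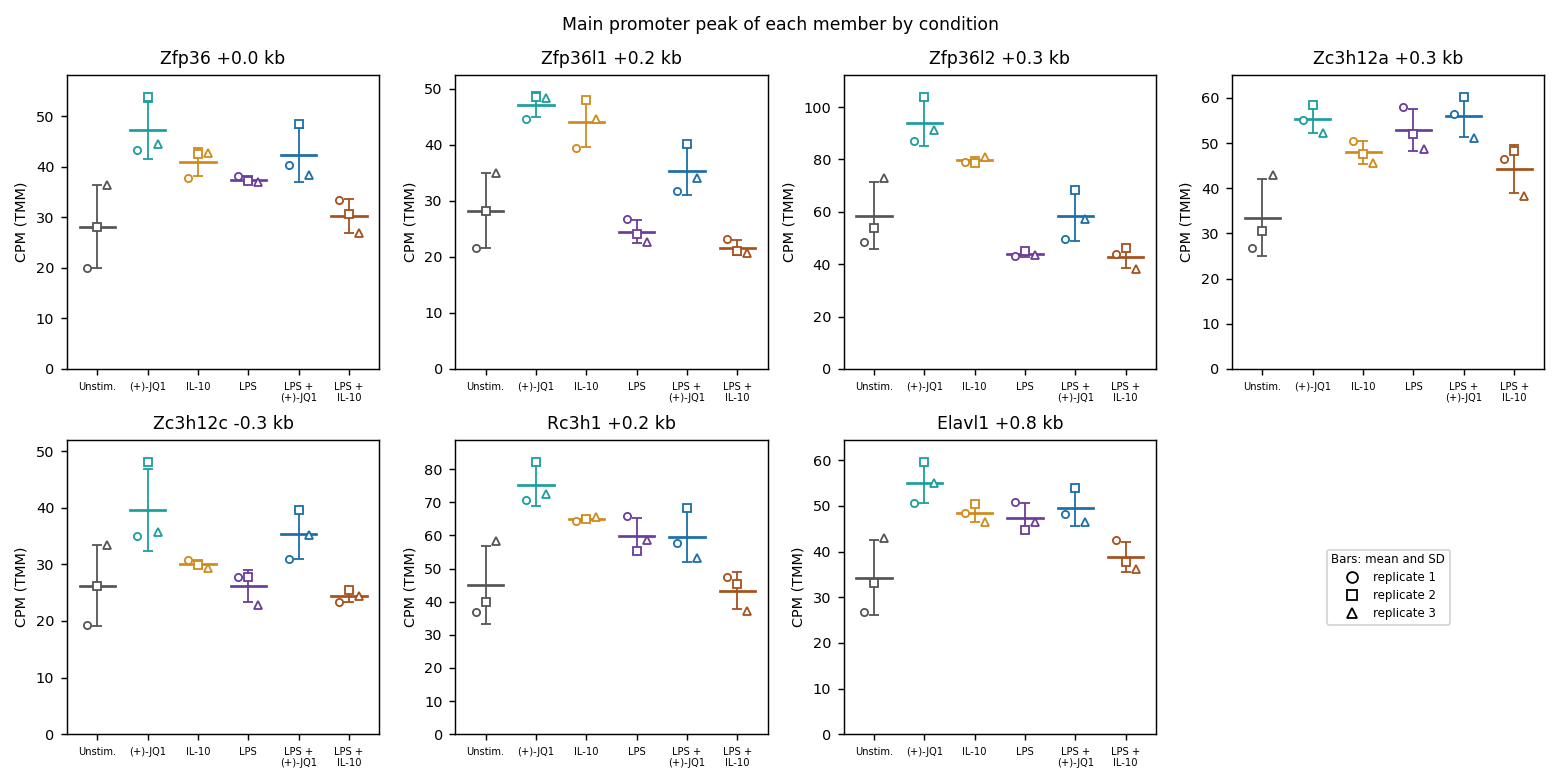
CPM (TMM-scaled, y axis) of the main promoter peak of each of the 7 genes in the 6 conditions (x axis). Symbols are the 3 replicates, long bars the mean and error bars the SD. The (+)-JQ1 libraries lie above the unstimulated ones at all 7 peaks under this scaling, whereas under loess offsets the log2 fold-changes at Zfp36l2 and Rc3h1 are -0.0797 and -0.00208.

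The full series of main promoter values, for replicates 1, 2 and 3 in each condition, was as follows for the other genes. Zfp36 +0.0 kb had 19.9, 28.1 and 36.5 CPM unstimulated, 43.4, 53.8 and 44.4 with (+)-JQ1, 37.9, 42.5 and 42.8 with IL-10, 38.2, 37.2 and 37.03 with LPS, 40.4, 48.5 and 38.4 after (+)-JQ1 and LPS and 33.5, 30.6 and 26.8 after IL-10 and LPS. Its libraries with LPS lay above those after IL-10 and LPS, and other neighbours in the order of group means overlapped. Zfp36l2 +0.3 kb had 48.6, 53.96 and 73.04 CPM unstimulated, 86.9, 104 and 91.4 with (+)-JQ1, 79.2, 78.5 and 81.1 with IL-10, 42.96, 45.00 and 43.4 with LPS, 49.7, 68.4 and 57.2 after (+)-JQ1 and LPS and 43.9, 46.3 and 38.1 after IL-10 and LPS. In this order of means, (+)-JQ1 lay apart from IL-10, IL-10 from unstimulated and (+)-JQ1 with LPS from LPS, whereas LPS and IL-10 with LPS overlapped. Zc3h12a +0.3 kb had 26.8, 30.5 and 43.02 CPM unstimulated, 55.2, 58.3 and 52.2 with (+)-JQ1, 50.5, 47.6 and 45.6 with IL-10, 57.9, 52.1 and 48.7 with LPS, 56.5, 60.1 and 51.2 after (+)-JQ1 and LPS and 46.4, 48.1 and 38.2 after IL-10 and LPS, and neighbouring groups in the order of means overlapped. Zc3h12c -0.3 kb had 19.2, 26.2 and 33.4 CPM unstimulated, 35.01, 47.98 and 35.7 with (+)-JQ1, 30.8, 29.9 and 29.4 with IL-10, 27.8, 27.8 and 22.8 with LPS, 30.9, 39.6 and 35.2 after (+)-JQ1 and LPS and 23.4, 25.4 and 24.5 after IL-10 and LPS. There the libraries after (+)-JQ1 and LPS lay just above those with IL-10 alone, and other neighbours overlapped. Elavl1 +0.8 kb had 26.8, 33.02 and 43.1 CPM unstimulated, 50.6, 59.5 and 54.9 with (+)-JQ1, 48.4, 50.5 and 46.4 with IL-10, 50.9, 44.7 and 46.5 with LPS, 48.2, 54.03 and 46.6 after (+)-JQ1 and LPS and 42.5, 37.7 and 36.2 after IL-10 and LPS, with the libraries after IL-10 and LPS under those with LPS.

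Away from the main promoters, Zfp36 -13.7 kb at the promoters of Med29 and Paf1 was higher with (+)-JQ1 alone (0.76 ± 0.14, edgeR FDR = 1.59e-05), and it too was not called under reads in peaks as the scaling (0.48, edgeR FDR = 0.000241), with loess offsets (0.09, edgeR FDR = 0.575) or without replicate 2 (0.58, edgeR FDR = 0.092). The 4 lower peaks, which fall outside the rule for named peaks and are given because they are few, were Zfp36l2 +11.8 kb (-0.90 ± 0.19), Rc3h1 +57.0 kb (-1.45 ± 0.39), Zfp36l1 -6.5 kb (-1.16 ± 0.40) and Zc3h12c -2.5 kb (-0.74 ± 0.25). The downstream peaks that fell most with LPS were not called with (+)-JQ1 alone, with -0.30 ± 0.15, edgeR FDR = 0.204 at Zfp36l1 +7.1 kb and -0.25 ± 0.14, edgeR FDR = 0.267 at Zfp36l2 +9.1 kb. Nor were Zc3h12c +61.7 kb (-0.36 ± 0.16, edgeR FDR = 0.142) or Zc3h12c +68.3 kb (-0.16 ± 0.14, edgeR FDR = 0.557).

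IL-10 alone, measured against the same unstimulated libraries, gave 8 higher and 3 lower member peaks, beside 5.16% and 3.5% of all peaks, and 5 of the 40 promoter peaks were higher, beside 8.72% of all promoter peaks. Zfp36l1 +0.2 kb had 39.4, 47.99 and 44.6 CPM, above all unstimulated libraries (0.63 ± 0.14, edgeR FDR = 0.000885). Rc3h1 +0.2 kb had 64.4, 64.9 and 65.6 (0.53 ± 0.14, edgeR FDR = 0.00657), Zfp36 -7.0 kb rose by 0.65 ± 0.14, and the main promoter peaks of Zfp36 and Zc3h12a rose by 0.54 ± 0.14 and 0.52 ± 0.14. None of these 5 was called under reads in peaks as the scaling, with loess offsets or without replicate 2, where Zfp36l1 +0.2 kb had 0.56, edgeR FDR = 0.137, Rc3h1 +0.2 kb 0.44, edgeR FDR = 0.253, Zfp36 -7.0 kb 0.59, edgeR FDR = 0.129, Zfp36 +0.0 kb 0.51, edgeR FDR = 0.193 and Zc3h12a +0.3 kb 0.46, edgeR FDR = 0.24. Without replicate 1 the calls at Rc3h1, Zfp36 +0.0 kb and Zc3h12a +0.3 kb were lost too (0.43, edgeR FDR = 0.106, then 0.42, edgeR FDR = 0.11, and 0.36, edgeR FDR = 0.192).

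Among the other IL-10 calls, Zc3h12a +28.1 kb in an intron of Meaf6 rose (0.73 ± 0.17, edgeR FDR = 0.00255) and was lost without replicate 1 (0.49, edgeR FDR = 0.144). The intronic Zc3h12c +15.6 kb fell (-0.86 ± 0.26, edgeR FDR = 0.0173) and was lost without replicate 1 (-0.64, edgeR FDR = 0.259) and without replicate 2 (-0.89, edgeR FDR = 0.157). Zfp36l2 +11.8 kb went from 6.36, 7.42 and 8.88 to 5.06, 4.28 and 4.46 CPM with IL-10 and to 3.46, 4.62 and 4.13 with (+)-JQ1, and in neither group did a library reach the unstimulated ones (-0.72 ± 0.19, edgeR FDR = 0.00567 and -0.90 ± 0.19, edgeR FDR = 0.000239). The IL-10 call there was lost without replicate 2 (-0.69, edgeR FDR = 0.123) and without replicate 3 (-0.56, edgeR FDR = 0.114).

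Whether a treatment acted differently with and without LPS was tested by the interaction, the log2 fold-change with a treatment under LPS minus that in resting cells. For (+)-JQ1 5 member peaks had a positive and 5 a negative interaction, beside 0.649% and 3.19% of all peaks. Positive were Zfp36l1 +7.1 kb (1.38 ± 0.23, edgeR FDR = 8.19e-05) and Zfp36l2 +9.1 kb (1.10 ± 0.21, edgeR FDR = 0.00109), where the peak was called higher with (+)-JQ1 under LPS and not in resting cells, as well as Zfp36 +23.1 kb (0.79 ± 0.21, edgeR FDR = 0.0157). Zfp36l1 +11.8 kb (0.90 ± 0.26, edgeR FDR = 0.0317) was positive too. So was Zfp36l2 +11.8 kb (1.15 ± 0.29, edgeR FDR = 0.013), which was called lower with (+)-JQ1 in resting cells and not called under LPS. Of the promoter peaks 4 of 40 were negative, beside 11.2% of all promoter peaks. With IL-10 there were 2 positive and 8 negative interactions, beside 2.01% and 5.9% of all peaks, and 6 of the 40 promoter peaks were negative, beside 16.9%. The most negative was Rc3h1 +0.2 kb, with 65.8, 55.4 and 58.7 CPM with LPS and 47.4, 45.5 and 37.1 after IL-10 and LPS, while with IL-10 alone it was above the unstimulated libraries (-0.996 ± 0.20, edgeR FDR = 0.000265). The main promoter peak of Zfp36 had an interaction of -0.84 ± 0.20, edgeR FDR = 0.00254. With loess offsets neither was called (-0.28, edgeR FDR = 0.0876 and -0.28, edgeR FDR = 0.176). Without replicate 2 the 5 interactions listed next kept their sign and were not called, and over all peaks 29 positive and 87 negative interactions with (+)-JQ1 were called then. The values without replicate 2 were 1.03, edgeR FDR = 0.219 at Zfp36l1 +7.1 kb, 0.98, edgeR FDR = 0.236 at Zfp36l2 +9.1 kb, 0.71, edgeR FDR = 0.348 at Zfp36 +23.1 kb (also lost without replicate 1, 0.80, edgeR FDR = 0.0882), -1.004, edgeR FDR = 0.0666 at Rc3h1 +0.2 kb and -0.83, edgeR FDR = 0.138 at Zfp36 +0.0 kb.

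The other genes of the decay machinery, a list of 60 of which 58 had 115 promoter peaks, give the setting of these loci. With LPS 22 of the 115 rose and 5 fell, beside 14.3% and 6.71% of all promoter peaks, with a median log2 fold-change of 0.32 beside 0.12 over all promoter peaks. Higher were Exosc3 of the RNA exosome (0.72 ± 0.14, edgeR FDR = 2.08e-05), Xrn1, the cytoplasmic 5'-3' exonuclease (0.64 ± 0.14, edgeR FDR = 0.000284), Khsrp, another AU-rich element binding decay factor (0.65 ± 0.14, edgeR FDR = 0.000247, with -0.59 ± 0.21 at a second peak), and Upf1, the helicase that Regnase-1 needs (0.54 ± 0.14, edgeR FDR = 0.00132). Of the kinases that act on the Zfp36 family, Mapkapk3 fell at 1 peak (-1.14 ± 0.15, edgeR FDR = 9.78e-10) and Mapkapk2 rose at 1 (0.56 ± 0.20, edgeR FDR = 0.0276). After (+)-JQ1 and LPS 1 was higher and 1 lower than LPS alone, beside 1.72% and 3.22% of all promoter peaks. They were Hnrnpd (0.71 ± 0.19, edgeR FDR = 0.0119) and the exosome helicase Skiv2l (-0.78 ± 0.18, edgeR FDR = 0.00139). After IL-10 and LPS 2 were higher and 3 lower, beside 3.04% and 3.94%. The higher ones were the same peaks of Hnrnpd and Skiv2l (0.61 ± 0.19, edgeR FDR = 0.0291 and 0.56 ± 0.16, edgeR FDR = 0.0124), and the lower ones included Btg1 and Cnot6l of deadenylation (-0.58 ± 0.15, edgeR FDR = 0.00366 and -0.51 ± 0.15, edgeR FDR = 0.0166). With (+)-JQ1 alone and TMM scaling 55 were higher and 1 lower, beside 22.9% and 2.15% (median 0.52 beside 0.08 over all promoter peaks), and with IL-10 alone 15 and 1, beside 8.72% and 1.97%. Over all peaks the 15247 higher with (+)-JQ1 alone became 3828 with reads in peaks as the scaling and 2559 with loess offsets. The 10021 higher with IL-10 alone became 2464 and 2751. No counts of the listed promoters under those scalings are given here. Examples of the listed genes were chosen after their values were seen.

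The promoters of protein-coding genes whose log2 CPM over the 18 libraries was most like that of a member's main promoter peak were Dstyk, Med31 and St13/Xpnpep3 for Zfp36 (Pearson's r 0.987, 0.986 and 0.985), Dnase1l1/Taz, Zfp13 and 4833442J19Rik for Zfp36l1 (0.962, 0.961 and 0.960) and Dhrs3, Trf and 4833442J19Rik for Zfp36l2 (0.979, 0.975 and 0.971). For Zc3h12a they were Phf6, Mob1a and Ankle2 (0.972, 0.972 and 0.967), for Zc3h12c Dock11, Zfp617/Zfp882 and Slc16a13 (0.955, 0.950 and 0.948), for Rc3h1 Clp1, Metap1 and Brf1 (0.986, 0.986 and 0.986) and for Elavl1 Ythdf2, Adam10 and Rpl22 (0.991, 0.986 and 0.986). The points of each correlation are libraries that share scaling, and a value over 0.9 was common for some members and rare for others, with 4172 of 25581 promoters for Elavl1, 3851 for Zfp36, 2935 for Rc3h1 and 1246 for Zc3h12a against 146 for Zfp36l2, 133 for Zc3h12c and 114 for Zfp36l1.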

How the data were processed

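The authors aligned read pairs to build mm9 with Bowtie2 within PEPATAC, called peaks in each library by MACS2, took their union and deposited raw counts per peak and library, without normalization or pooling. ChIPSeeker gave the promoter class (1000 bp upstream to 100 bp downstream of a start site), the tool that counted reads is not given in the sources used here, and neither is whether coordinates count from 0 or 1. Counts of 18 libraries were used, 6 further columns that match no sample were not. Replicates 1 and 3 were on lanes 5 and 6, and replicate 2 on lane 5 without and lane 6 with LPS.

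Counts were tested with edgeR 4.0.16 (R 4.3.3) by quasi-likelihood tests in 1 fit of all 6 groups, after filterByExpr and TMM. SE is the log2 fold-change over the root of F, CPM used TMM-scaled totals and log2 CPM a prior count of 2. The members and lists were chosen with earlier results of these data known. Named peaks are each gene's main promoter peak, the 2 most changed DARs per gene and direction for LPS and for each treatment under LPS, and the DAR of smallest FDR per gene elsewhere. The 9 peaks shown with sequences had an FDR under 0.001 for a treatment under LPS at a mean of at least 5 CPM, or the smallest FDR for LPS at a gene with more than 5 DARs. Motif shares used peaks within 10% of the width. Alternatives were DESeq2 1.42.0, its size factors, reads in peaks and loess offsets (span 0.3) as scalings, no filter, a replicate block, lane, only the groups compared, and each replicate left out. Fits were tested on simulated counts. The number of libraries and their depth limit the precision, and p-values cover the spread between these libraries. Python 3.11.15 with pandas 2.3.3, numpy 2.4.6 and matplotlib 3.10.9 were used.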

Additional observations from a re-analysis of the deposited data

Results flagged for a closer look

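A treatment's log2 fold-change differed between LPS-stimulated and resting cells, by the interaction term of the edgeR fit, in 13 of the tests at named peaks. These peaks were named as the called one of smallest FDR per gene, so their number follows from that choice and is no evidence by itself. Among all promoter peaks 11.2% had a negative interaction with (+)-JQ1 and 16.9% with IL-10. For (+)-JQ1 the difference, LPS minus resting, was positive at Zfp36 +23.1 kb (0.79 ± 0.21, edgeR FDR = 0.0157), Zfp36l1 +7.1 kb (1.38 ± 0.23, edgeR FDR = 8.19e-05) and Zfp36l2 +9.1 kb (1.10 ± 0.21, edgeR FDR = 0.00109). It was negative at Zc3h12a +0.3 kb (-0.64 ± 0.19, edgeR FDR = 0.0394), Zc3h12c +68.3 kb (-0.73 ± 0.20, edgeR FDR = 0.0198), Rc3h1 +0.2 kb (-0.74 ± 0.20, edgeR FDR = 0.0164) and Elavl1 +0.8 kb (-0.61 ± 0.19, edgeR FDR = 0.0484). For IL-10 it was negative at Zfp36 -13.7 kb (-0.88 ± 0.19, edgeR FDR = 0.00114), Zfp36l1 +0.2 kb (-0.81 ± 0.20, edgeR FDR = 0.00303), Zc3h12a +0.3 kb (-0.78 ± 0.19, edgeR FDR = 0.00431), Rc3h1 +0.2 kb (-0.996 ± 0.20, edgeR FDR = 0.000265) and Elavl1 +0.8 kb (-0.78 ± 0.19, edgeR FDR = 0.00355), and positive at Zc3h12c -13.4 kb (1.36 ± 0.39, edgeR FDR = 0.015). With loess offsets no negative interaction was called, with IL-10 values between -0.28 and -0.12 and (+)-JQ1 values of -0.05, edgeR FDR = 0.893 at Zc3h12a, -0.41, edgeR FDR = 0.206 at Zc3h12c, -0.11, edgeR FDR = 0.722 at Rc3h1 and -0.04, edgeR FDR = 0.929 at Elavl1. The calls also depend on replicate 2. Without it, the 1261 positive and 6202 negative (+)-JQ1 interactions over all peaks became 29 and 87. For IL-10, 3907 and 11454 became 603 and 1135.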

How the results depend on the processing

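Of 759 values of named peaks under 11 alternatives, 606 kept their direction and their side of the limits, 151 kept the direction but lost the call, and 2 reversed, both for (+)-JQ1 alone with loess offsets, at Zfp36l2 +0.3 kb (-0.0797) and Rc3h1 +0.2 kb (-0.00208). Calls were lost most often without replicate 2 (49 of 69), with loess offsets (29), without replicate 1 (23) and with reads in peaks as the scaling (21). With reads in peaks as the scaling, counts of member peaks were 20 higher and 36 lower with LPS (10 lower at Zfp36l1), 1 lower with IL-10 under LPS, 6 with a (+)-JQ1 and 22 with an IL-10 interaction, and 0 of 7 main promoter peaks higher with (+)-JQ1 alone. Over all 194230 peaks, 12785 were then higher and 37571 lower with LPS, and 6766 were lower with IL-10 under LPS. Interactions over all peaks were 4674 positive and 1838 negative with (+)-JQ1, and 12207 and 5152 with IL-10. With loess offsets the member counts were 8 changed with (+)-JQ1 alone, 6 with IL-10 alone, 1 lower with IL-10 under LPS and 0 of 7 main promoter peaks. Over all peaks, 2559 were then higher and 4415 lower with (+)-JQ1 alone, and 2751 and 3173 with IL-10 alone. With IL-10 under LPS 9061 of all peaks were lower. IL-10 under LPS lowered 1 member peak in DESeq2 and 1 with the replicate block, in place of 2, beside 7265 and 8760 of all peaks.

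Leaving out 1 replicate gave ranges of 21 to 33 higher and 8 to 14 lower with LPS, 1 to 9 higher and 2 to 7 lower with (+)-JQ1 under LPS, 5 to 7 higher and 1 to 2 lower with IL-10 under LPS, 2 to 23 changed with (+)-JQ1 alone, 1 to 19 with IL-10 alone, 0 to 15 between the treatments under LPS, and 0 to 12 and 0 to 13 interactions with (+)-JQ1 and IL-10. For Zc3h12c peaks higher with LPS the range was 16 to 20, for Zfp36l1 peaks lower 4 to 7 and for main promoter peaks with (+)-JQ1 alone 1 to 7, the low ends without replicate 2 apart from Zfp36l1, with 4 also without replicate 3. The counts over all peaks fell as well without replicate 2, to 15606 higher and 9404 lower with LPS. Their ranges with 1 replicate left out were 15606 to 25513 higher and 9404 to 15649 lower with LPS. With (+)-JQ1 under LPS they were 968 to 3223 and 3011 to 5618, and with IL-10 under LPS 4412 to 5698 and 4504 to 6359. With (+)-JQ1 alone they were 4341 to 18913 and 1101 to 5750, and with IL-10 alone 1551 to 16627 and 804 to 6149. The labels tie same-numbered libraries by the number only, and their deviations from the group means were hardly correlated (mean r = 0.0057 over 45 pairs, -0.0029 over 90 others). With the replicate number as a block the counts were 32 and 15 for LPS, 7 and 6 for (+)-JQ1 under LPS, 8 and 1 for IL-10 under LPS, and 10 between the treatments, and 4 of 69 named calls fell outside the limits. Over all peaks the block gave 22843 and 19623 for LPS, 3374 and 6773 for (+)-JQ1 under LPS, and 8297 and 8760 for IL-10 under LPS. Between the treatments it gave 6615 higher and 9102 lower. Windows of 10 kb in place of 25 kb held 7, 9, 11, 12, 28, 21 and 22 peaks of the 7 genes in the order of their first naming. Peaks under about 1.5 CPM rest on few reads, and most of their calls were lost without 1 replicate.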
